A study of Mus musculus with 4 samples.

Results

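Lysosomal genes were followed in YFP+, c-kit+ leukemic stem cells (LSCs) from the bone marrow of mice with acute myeloid leukemia (AML). The set held 40 named genes: 10 proteases, 6 glycosidases, 7 genes of lipid handling and lumenal cofactors, 7 membrane proteins, 9 genes of the proton pump, and Tfeb. All 40 were found by their symbols among the 17104 genes of the expression table. Of these 40, 36 had a mean of at least 1 FPKM (depth-scaled fragments per kilobase of gene) over the 4 libraries and entered the test between genotypes. Glb1, Npc1, Scarb2 and Tfeb lay below that level and are given by their values.

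The lysosome is the acidic compartment in which cells break down proteins, glycans and lipids that arrive from endocytosis, phagocytosis and autophagy. A vacuolar-type ATPase pumps protons into the lumen, heavily glycosylated membrane proteins line it, and soluble hydrolases reach it through mannose 6-phosphate tags. Many of these genes are controlled together by TFEB and its relatives, which bind E-box sequences near the start sites of lysosomal genes, and monocytes and macrophages are rich in lysosomes.

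Lineage-negative bone marrow cells of CD37 fl/fl, Rosa26-CreERT2 mice had been transduced with the retrovirus MSCV-MLL-AF9-IRES-YFP and transplanted into sublethally irradiated C57 mice, which the labels give as male. Tamoxifen, which activates CreERT2 and removes the floxed exons of Cd37, was given to the primary recipients of the CD37 -/- group, and corn oil to those of the CD37 fl/fl group. RNA came from sorted LSCs of secondary recipients, which had also received supporting bone marrow cells, at week 6, with 2 libraries per genotype. The control samples are titled CD37 WT but carry the genotype CD37 fl/fl. Leukemia cells of both genotypes therefore came from floxed donors and carried the ubiquitously expressed CreERT2 and the MLL-AF9 fusion. The genotypes differed in tamoxifen exposure as well as in Cd37. The labels call the replicates independent without saying whether each came from a separate mouse, so the tests below measure the spread between these libraries.

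Start-site sequences were examined first, since the members share a known form of control there. Sequence is shown for Lamp1, Ctsd and Atp6v0b, 3 members whose values were higher in both CD37 -/- libraries and whose windows hold the E-box CACGTG, which is in capitals. It comes from RefSeq on GRCm38.p6, reads 5′ to 3′ on the strand of the gene, and is limited to bases upstream of the gene as GENCODE M21 annotates it. The stretches are chr8:13158911-13159160 for Lamp1 (plus strand, 250 bases), chr7:142388039-142388077 for Ctsd (minus strand, 39 bases) and chr4:117887334-117887579 for Atp6v0b (minus strand, 246 bases).
Lamp1: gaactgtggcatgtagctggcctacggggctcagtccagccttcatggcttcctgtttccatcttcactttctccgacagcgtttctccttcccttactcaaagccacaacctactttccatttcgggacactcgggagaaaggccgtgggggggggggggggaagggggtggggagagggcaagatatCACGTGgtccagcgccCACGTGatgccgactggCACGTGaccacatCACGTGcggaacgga
Ctsd: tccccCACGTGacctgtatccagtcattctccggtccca
Atp6v0b: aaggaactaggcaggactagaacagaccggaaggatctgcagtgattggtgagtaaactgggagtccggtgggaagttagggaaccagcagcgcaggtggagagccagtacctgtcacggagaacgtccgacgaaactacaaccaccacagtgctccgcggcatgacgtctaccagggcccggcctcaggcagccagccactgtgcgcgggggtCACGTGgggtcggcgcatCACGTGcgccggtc

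Before the RefSeq start of Lamp1, 4 copies of CACGTG began 61, 45, 28 and 15 bases upstream. Those of Ctsd began 245 and 98 bases upstream, of which the first is shown, and those of Atp6v0b 36 and 18 bases upstream. Windows of 300 bases, from 250 before to 50 after the start, were available for 35 of the 40 members. CACGTG, which reads the same on both strands, was found in 12 of these 35 (34.3%), against 8.09% of all 27025 genes with such a window. Those 27025 include genes too low for the test here, so this background is not one of expressed genes only. The 12 were Atp6v0b, Atp6v0d1, Atp6v0e, Atp6v1a, Ctsa, Ctsd, Ctsl, Gla, Glb1, Lamp1, Lgmn and Mcoln1. Longer forms searched on both strands contain the same core: GTCACGTG was found in 9 members (25.7%) against 2.55% of all genes, and TCACGTGA in 7 (20.0%) against 1.12%. Atp6v0c had no CACGTG in any of its 3 windows. The 11 tested members with CACGTG had a median log2 fold change between genotypes of 0.25, and the 21 without it had 0.092. Both CD37 -/- libraries were higher in 6 of the 11 (54.5%) and 8 of the 21 (38.1%). They were lower in 1 of the 11, Atp6v0d1, and in 5 of the 21. Not all tested genes had a window. Over those that had one, these medians were 0.12 with the motif (610 genes) and 0.11 without (4080 genes). Both CD37 -/- libraries were higher for 41.8% and 39.7% of them. These matches describe the letters of the windows, and binding was not measured.

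Library totals, recovered from the smallest steps of the FPKM values, lay between 15327357 and 22627491 reads, and the members took between 0.755% and 1.08% of them. Cd37 itself was 56.6 and 46.8 FPKM in CD37 fl/fl against 23.2 and 22.9 FPKM in CD37 -/-, a mean of 44.6% of the CD37 fl/fl level (log2 fold change -1.12, SE 0.24, limma adjusted p = 0.104 by Benjamini-Hochberg). These values cover the whole gene, exons outside the floxed stretch included, so they do not measure how complete the deletion was. Among 11 genes listed for the sorted cells, Elane, Prtn3, Mpo and Hoxa9 were abundant. Kit was between 0.170 and 0.434 FPKM (a mean of 2.88 RPKM, depth-scaled reads per kilobase, here of exon). Ptprc was between 0.765 and 2.93 FPKM, and Cd34 and Flt3 were below 0.05 FPKM in every library. Of the 7 tested, 2 were higher in both CD37 -/- libraries (28.6%, against 38.2% of all tested genes), Ptprc and Hoxa10. Another 2 were lower in both (28.6%, against 23.7%), Prtn3 and Mpo. Mpo was 80.3 and 51.6 FPKM in CD37 fl/fl against 34.4 and 20.8 FPKM in CD37 -/-. Markers of other cells differed between libraries as well: the summed FPKM of 10 neutrophil genes was 18352 and 3589 in CD37 fl/fl against 18397 and 10293 in CD37 -/-, and that of 7 erythroid genes was 60.9 and 5.17 against 576 and 143. Of the 10 neutrophil genes, 5 were higher in both CD37 -/- libraries (50.0%, against 38.2% of all tested genes). In both they were lower for 0 (against 23.7%), and the median log2 fold change was 1.20. The 9 dendritic and antigen-presenting cell markers summed to 203 and 26.5 FPKM against 9.16 and 32.4 FPKM, with 7 of the 9 below 1 FPKM in every library. Of 4 T and NK cell genes, which summed to 94.7 and 118 FPKM against 40.3 and 41.4 FPKM, 3 were below 1 FPKM in every library. The 15 monocyte and macrophage markers summed to 565 and 302 FPKM in CD37 fl/fl and to 355 and 552 in CD37 -/-. In bulk RNA, fewer cells of a type and less RNA per cell cannot be told apart.

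No lysosomal gene passed the adjusted threshold of 0.05 in limma with Benjamini-Hochberg correction, nor did any of the 6761 genes tested (0.0%). The smallest adjusted p of a member was 0.0893, for Atp6v0c. At an unadjusted p under 0.05 in the same limma fit, 8 of the 36 members were higher in CD37 -/- (22.2%, against 16.1% of all tested genes) and 2 were lower (5.56%, against 7.96%). Both CD37 -/- libraries lay above both CD37 fl/fl libraries in 16 members (44.4%, against 38.2% of all tested genes) and below both in 6 (16.7%, against 23.7%), and the groups overlapped in the other 14. The median log2 fold change of the 36 was 0.15, beside 0.11 over all tested genes. As a set the lysosomal genes thus stood close to the background, with single members on either side of it. With 2 libraries per group, an exact permutation test of a single gene cannot go below a two-sided p of 0.333.

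These counts moved with the libraries and with the scaling. Without CD37 -/- replicate 2 the median of the members was -0.037, and without CD37 -/- replicate 1 it was 0.41. It was 0.38 without CD37 fl/fl replicate 1 and 0.070 without CD37 fl/fl replicate 2. The 8 members higher at an unadjusted p under 0.05 in limma became 4, 4 and 3 without CD37 fl/fl replicate 1, CD37 fl/fl replicate 2 and CD37 -/- replicate 2, when 11.2%, 15.1% and 8.13% of all tested genes were higher at that p. The summed FPKM of all genes was 260590 and 257393 in CD37 fl/fl against 217309 and 181944 in CD37 -/-, so giving all libraries an equal sum (TPM) raised the median of all tested genes from 0.11 to 0.49. On that scale 14 members were higher and 0 lower at an unadjusted p under 0.05 in limma, beside 30.5% and 2.88% of all tested genes. There 19 members lay above both CD37 fl/fl libraries (60.3% of all tested genes did) and 0 lay below both (10.2%), and the members' median was 0.53.

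**Figure D1:**
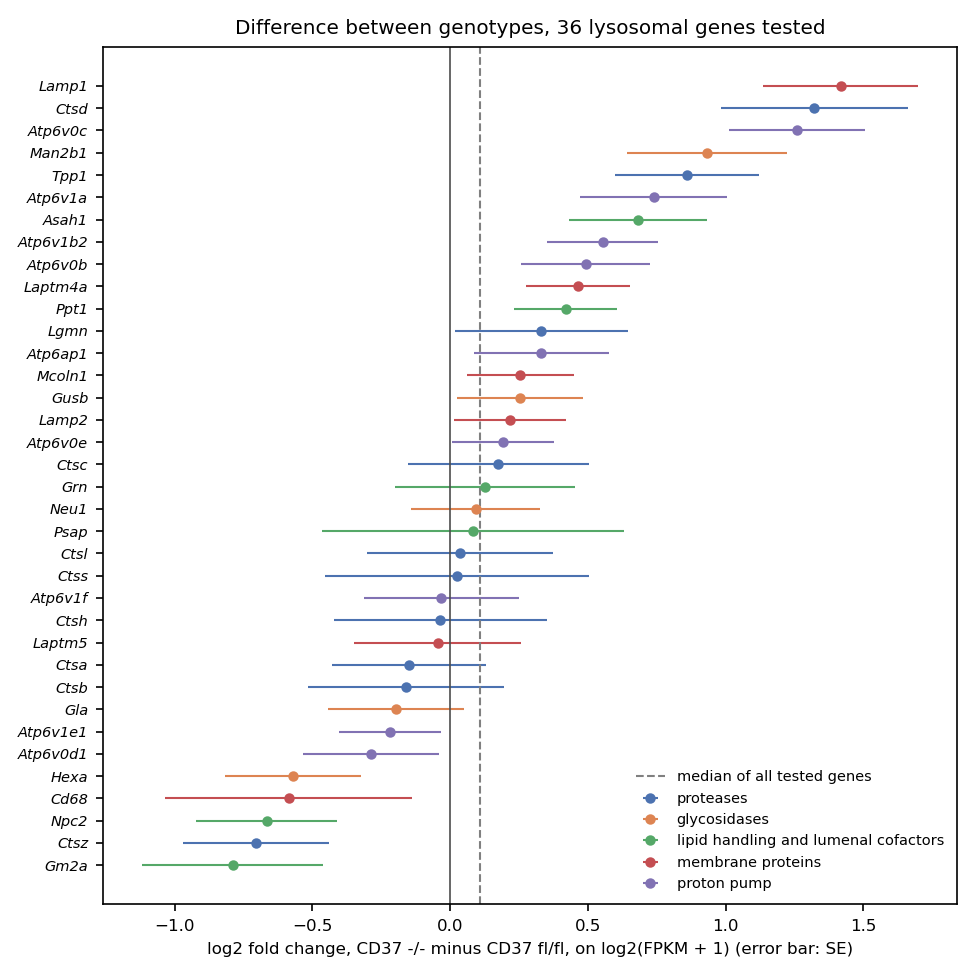
Log2 fold change of the 36 tested lysosomal genes, CD37 -/- minus CD37 fl/fl, on the log2(FPKM + 1) scale, ordered by size and coloured by role, with the SE from limma as error bars. The dashed line is the median of all 6761 tested genes, 0.11. Lamp1, Ctsd and Atp6v0c stand at the top with 1.42, 1.32 and 1.26, and Gm2a stands at the bottom with -0.79.

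Of the 10 proteases of the lumen, Ctsd and Tpp1 were higher in both CD37 -/- libraries, Ctsz was lower in both, and the other 7 overlapped. Ctsd encodes cathepsin D, the main aspartic protease of the lysosome. Ctsd (chromosome 7, 142375911 to 142388038, GRCm38) was 5.81 and 4.12 FPKM in CD37 fl/fl against 9.96 and 18.9 FPKM in CD37 -/-. Each CD37 -/- library lay above each CD37 fl/fl library, and the lower of the CD37 -/- values was 1.71 times the higher of the CD37 fl/fl values. The log2 fold change was 1.32 (SE 0.34, limma adjusted p = 0.122 by Benjamini-Hochberg), and 33.2% of the 31-base stretches of its transcripts also occur in Gm49369, a gene not analysed here, so its reads may be shared. Tpp1, a tripeptidyl peptidase whose loss causes a neuronal ceroid lipofuscinosis, was 3.95 and 4.50 FPKM against 6.65 and 10.7 FPKM. Its groups did not overlap either, with a log2 fold change of 0.86 (SE 0.26, limma adjusted p = 0.146 by Benjamini-Hochberg).

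Ctsz, the carboxypeptidase cathepsin Z, went the other way. It was 91.6 and 72.0 FPKM in CD37 fl/fl against 47.7 and 51.2 FPKM in CD37 -/-. All of the CD37 -/- values were below the CD37 fl/fl values, which gave a log2 fold change of -0.70 (SE 0.26, limma adjusted p = 0.186 by Benjamini-Hochberg). Ctsz was also the most abundant of the 40 members per exon length, with a mean over the 4 libraries of 526 RPKM by exon length. The sign of its difference was kept under every alternative processing tried, with log2 fold changes from -0.88 to -0.33. Under TPM rescaling, however, 0 members were lower in both CD37 -/- libraries, so the groups of Ctsz overlapped there.

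The other 7 proteases overlapped between genotypes, and in each of them the ratio between the libraries of a genotype exceeded the ratio between the genotype means. Ctss, cathepsin S, which trims the invariant chain in antigen-presenting cells, was 6.61 and 2.97 FPKM in CD37 fl/fl against 2.69 and 7.45 FPKM in CD37 -/-. Its level in CD37 -/- replicate 2 was 2.76 times that in replicate 1, while the genotype means differed by a ratio of 1.06. The antigen-presenting cell markers had the same order of libraries in 5 of 9 genes, and their part in the Ctss values was not tested. Ctsb, cathepsin B, a broad cysteine protease, was 45.8 and 28.4 FPKM against 25.7 and 40.1 FPKM. The same order, CD37 fl/fl replicate 1 over replicate 2 and CD37 -/- replicate 2 over replicate 1, held for Ctsa, Ctsc, Ctsh and Lgmn. Ctsa, the protective protein of the sialidase Neu1, was between 25.3 and 37.2 FPKM, and Ctsc, which activates the serine proteases of myeloid granules, was between 2.44 and 5.32 FPKM. Ctsh, an aminopeptidase, was between 3.14 and 8.08 FPKM, and Lgmn, the asparaginyl endopeptidase that processes other cathepsins, between 0.517 and 1.93 FPKM. Ctsl, cathepsin L, was 6.70 and 6.94 FPKM in CD37 fl/fl against 4.76 and 10.2 FPKM in CD37 -/-, so its CD37 fl/fl values lay between the CD37 -/- values.

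**Figure D2:**
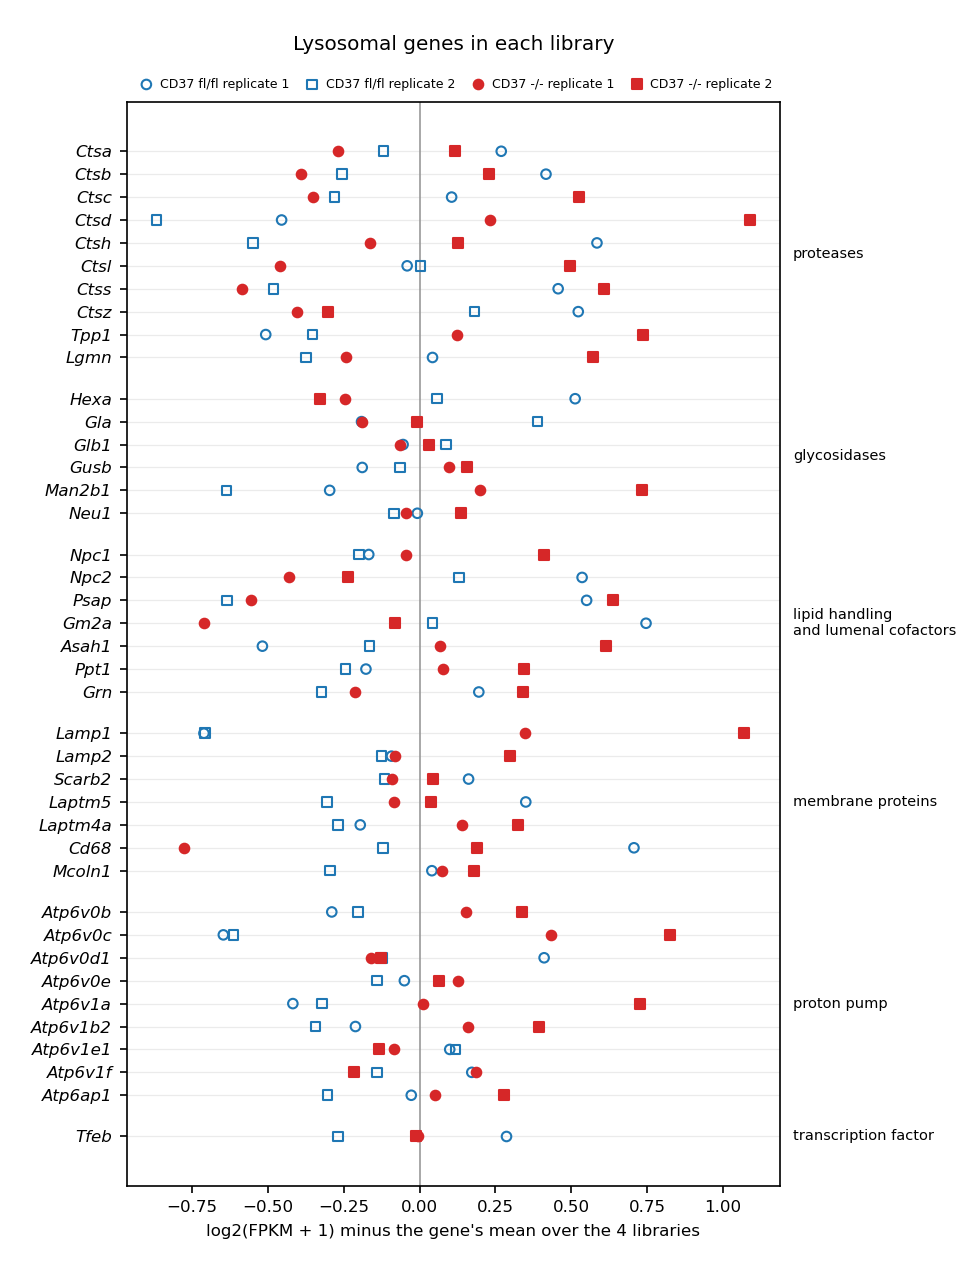
Each of the 40 lysosomal genes in each library, as log2(FPKM + 1) minus the gene's mean over the 4 libraries, grouped by role. Blue open symbols are CD37 fl/fl, red filled symbols CD37 -/-, circles replicate 1 and squares replicate 2. Lamp1, Ctsd, Atp6v0c and Man2b1 have both red symbols to the right, Ctsz, Hexa, Npc2 and Gm2a have both to the left, and Ctss, Ctsb, Psap and Grn place CD37 fl/fl replicate 1 beside CD37 -/- replicate 2.

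Among glycosidases, Man2b1 was higher in CD37 -/- and Hexa lower. Man2b1 is the lysosomal alpha-mannosidase that trims N-glycans of degraded glycoproteins. Its level was 22.0 and 17.2 FPKM in CD37 fl/fl against 31.5 and 46.0 FPKM in CD37 -/-. The groups did not overlap, and the log2 fold change was 0.93 (SE 0.29, limma adjusted p = 0.150 by Benjamini-Hochberg). Hexa encodes the alpha subunit of beta-hexosaminidase A, which removes N-acetylgalactosamine from GM2 ganglioside. It was 20.6 and 14.8 FPKM in CD37 fl/fl against 11.8 and 11.1 FPKM in CD37 -/-, again without overlap (log2 fold change -0.57, SE 0.25, limma adjusted p = 0.223 by Benjamini-Hochberg). Under TPM rescaling the groups of Hexa overlapped.

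Gusb, beta-glucuronidase, was between 24.0 and 26.3 FPKM in CD37 fl/fl and between 29.5 and 30.8 FPKM in CD37 -/-, a small difference (log2 fold change 0.25) without overlap. Neu1, the sialidase of the lysosome, stayed within 29.5 and 34.6 FPKM in all libraries, and its groups overlapped. Gla, alpha-galactosidase A, was 3.20 and 5.28 FPKM against 3.21 and 3.77 FPKM, with overlap. Glb1, the acid beta-galactosidase, was below the level for testing, at 0.721 and 0.898 FPKM against 0.709 and 0.826 FPKM, from at least 816 reads in each library.

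Genes of lipid handling moved in both directions. Gm2a is the activator protein that lifts GM2 ganglioside out of the membrane for hexosaminidase A. Its level was 9.26 and 5.30 FPKM in CD37 fl/fl against 2.74 and 4.78 FPKM in CD37 -/-. The CD37 -/- values lay below the CD37 fl/fl values with a gap of 1.11 times, and the log2 fold change of -0.79 (SE 0.33, limma adjusted p = 0.213 by Benjamini-Hochberg) was the lowest of the 36. Npc2, a soluble carrier that hands cholesterol to NPC1, was 32.6 and 24.3 FPKM against 16.2 and 18.7 FPKM. Its groups did not overlap (log2 fold change -0.67, SE 0.26, limma adjusted p = 0.193 by Benjamini-Hochberg). Under TPM rescaling the groups of Gm2a and those of Npc2 overlapped. Npc1, the membrane partner of Npc2 in cholesterol export, went the other way at very low levels: 65 and 54 reads in CD37 fl/fl against 156 and 664 in CD37 -/-, or 0.0908, 0.0667, 0.188 and 0.628 FPKM. The 95% exact Poisson intervals of the lowest 3 counts were 50.2 to 82.8, 40.6 to 70.5 and 132 to 182 reads, which cover counting error only, and Npc1 was too low for the test.

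Asah1, acid ceramidase, was 0.813 and 1.32 FPKM in CD37 fl/fl against 1.72 and 2.98 FPKM in CD37 -/- (log2 fold change 0.68, SE 0.25, limma adjusted p = 0.179 by Benjamini-Hochberg). At such low values the added 1 FPKM understates the difference, and the ratio of the means was 2.20. Ppt1, palmitoyl-protein thioesterase, was 2.94 and 2.76 FPKM against 3.69 and 4.65 FPKM, also without overlap. Psap, the precursor of the saposins that present sphingolipids to their hydrolases, was 62.7 and 27.0 FPKM in CD37 fl/fl against 28.6 and 66.8 FPKM in CD37 -/-. Its libraries differed by a ratio of 2.32 within CD37 fl/fl and 2.33 within CD37 -/-, while the genotype means differed by 1.06. Grn, progranulin, which travels with prosaposin to the lysosome, had the same order at 58.6 and 40.6 FPKM against 43.9 and 64.9 FPKM.

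Of the membrane proteins, Lamp1 had the largest log2 fold change of all 36 tested members. Together with Lamp2 it makes up much of the glycoprotein coat of the lysosomal membrane. Lamp1 (chromosome 8, 13159161 to 13175338, GRCm38) was 3.53 and 3.54 FPKM in CD37 fl/fl against 8.42 and 14.6 FPKM in CD37 -/-, from 875, 993, 2417 and 5333 reads. Its CD37 fl/fl values were nearly equal, and the lower of the CD37 -/- values was 2.38 times the higher of them. The log2 fold change was 1.42 (SE 0.28, limma adjusted p = 0.0908 by Benjamini-Hochberg), and it ranged from 1.05 to 1.95 over the alternatives, with adjusted p between 0.0611 and 0.263 in limma. Lamp2 was 3.34 and 3.24 FPKM against 3.37 and 4.69 FPKM. It did not overlap, but CD37 -/- replicate 1 exceeded the higher CD37 fl/fl library by a ratio of only 1.01.

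Laptm4a, a small membrane protein of late endosomes and lysosomes, was 4.76 and 4.47 FPKM in CD37 fl/fl against 6.26 and 7.26 FPKM in CD37 -/- (log2 fold change 0.46, SE 0.19). Mcoln1, the calcium channel TRPML1, was 2.87 and 2.07 FPKM against 2.96 and 3.27 FPKM. Both were without overlap, Mcoln1 by a ratio of 1.03. Laptm5, which is enriched in blood cells, was 45.1 and 28.3 FPKM against 33.1 and 36.1 FPKM and overlapped. Cd68, a heavily glycosylated protein widely used as a macrophage marker, was 135 and 75.7 FPKM in CD37 fl/fl against 47.7 and 94.1 FPKM in CD37 -/-, with overlap (log2 fold change -0.59, SE 0.45). Scarb2, the receptor that carries glucocerebrosidase to the lysosome, was 0.844 and 0.521 FPKM against 0.547 and 0.702 FPKM and was too low for the test.

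Proton pump genes had the highest median log2 fold change of the 5 roles, 0.33 over 9 genes. Of the 9, 6 were higher in both CD37 -/- libraries (66.7%, against 38.2% of all tested genes) and 2 were lower (22.2%, against 23.7%). Atp6v0c encodes the proteolipid c, which forms the rotating ring in the membrane. Atp6v0c (chromosome 17, 24163866 to 24169702, GRCm38) was at 13.1 and 13.4 FPKM in CD37 fl/fl against 28.8 and 38.1 FPKM in CD37 -/-. The groups were separated by a ratio of 2.15, and the log2 fold change was 1.26 (SE 0.25, limma adjusted p = 0.0893 by Benjamini-Hochberg). A processed copy, Atp6v0c-ps2, shares 11.9% of the 31-base stretches of Atp6v0c, and its own row read 102 and 80.3 FPKM against 91.9 and 127 FPKM, with overlap. Reads of these near-identical stretches may have been split between both rows.

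Atp6v1a, the catalytic A subunit, was 1.05 and 1.19 FPKM in CD37 fl/fl against 1.76 and 3.53 FPKM in CD37 -/-. Its log2 fold change was 0.74 (SE 0.27, limma adjusted p = 0.175 by Benjamini-Hochberg). Atp6v1b2, the B subunit that alternates with A in the cytosolic head, was 5.94 and 5.34 FPKM against 7.98 and 9.55 FPKM (log2 fold change 0.55, SE 0.20). Neither overlapped between genotypes. Atp6v0b, a second proteolipid of the ring, was 23.6 and 25.2 FPKM against 32.5 and 37.1 FPKM, and Atp6ap1, an accessory subunit, was 23.2 and 19.0 FPKM against 24.6 and 29.0 FPKM. Atp6v0e, a small membrane subunit, was between 5.40 and 5.82 FPKM in CD37 fl/fl and between 6.38 and 6.70 FPKM in CD37 -/-.

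The remaining subunits were lower in both CD37 -/- libraries or overlapped between genotypes. Atp6v0d1, which joins the ring to the central stalk, was 10.8 and 7.11 FPKM in CD37 fl/fl against 6.92 and 7.09 FPKM in CD37 -/-. CD37 fl/fl replicate 2 exceeded the higher CD37 -/- library by a ratio of just 1.00, so the absence of overlap rested on a very small gap. Atp6v1e1, a subunit of the outer stalk, was 7.26 and 7.37 FPKM against 6.27 and 6.02 FPKM. The differences of Atp6v0d1 and Atp6v1e1, -0.29 and -0.22 on the log2 scale, turned to 0.059 and 0.13 after TPM rescaling. Atp6v1f, a subunit of the central stalk, was 58.9 and 47.2 FPKM against 59.5 and 44.7 FPKM, with overlap, and 18.4% of its 31-base stretches occur in another annotated gene, AC169506.3.

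Tfeb itself was low, at 0.939 and 0.319 FPKM in CD37 fl/fl against 0.583 and 0.576 FPKM in CD37 -/-, from 797, 306, 573 and 722 reads. The CD37 -/- values lay between the CD37 fl/fl values. Tfeb stayed below the level of the main test and entered only alternatives with another filter. The activity of TFEB, which depends on its phosphorylation and location, is not measured by these data.

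Levels of different members were compared as RPKM by exon length, since the deposited values divide by the whole gene with its introns, on which the members differ (median ratio of gene to exon length 5.02, from 1.26 to 24.5). The mean over the 4 libraries ranged from 526 for Ctsz to 1.01 for Npc1. After Ctsz came Psap (421), Laptm5 (217), Hexa (187) and Atp6v0d1 (185). At the lower end stood Scarb2 (6.82), Tfeb (5.90), Mcoln1 (5.47) and Npc1. Psap had between 246 and 608 in the single libraries and Ctsz between 383 and 734, so the order of the upper members changed from library to library. The members with the largest positive differences were not among the most abundant: Ctsd, Lamp1 and Atp6v0c had means of 50.0, 45.5 and 40.3 on this scale. The 3 most abundant hydrolases or carriers that were lower in both CD37 -/- libraries, Ctsz, Hexa and Npc2, had 526, 187 and 78.4.

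Most of the lysosomal genes had one order of the libraries within each genotype. CD37 fl/fl replicate 1 exceeded replicate 2, and CD37 -/- replicate 2 exceeded replicate 1, in 23 of the 36 tested members (63.9%), against 19.7% of all tested genes. This pattern was chosen for counting after the values had been seen. It held for 8 of 10 proteases, 5 of 6 genes of lipid handling and cofactors, 5 of 6 membrane proteins, 2 of 5 glycosidases and 3 of 9 proton pump genes. Lysosomal genes outside the 40 had it as well, in 7 of 14 sorting genes (50.0%), 5 of 11 other membrane proteins (45.5%) and 8 of 19 other hydrolases (42.1%), as did 6 of 16 autophagy genes (37.5%), but 1 of 6 further pump subunits (16.7%), 1 of 13 relatives and regulators of TFEB (7.69%) and 0 of 6 cystatins did. The monocyte and macrophage markers, none of which is a member, had the same order in 14 of 15 genes, or 10 of the 11 tested. Csf1r, the receptor of macrophage colony-stimulating factor, was 3.79 and 1.16 FPKM in CD37 fl/fl against 1.16 and 4.38 FPKM in CD37 -/-. Lyz2, lysozyme, was 329 and 126 FPKM against 125 and 284 FPKM. C1qa was 6.51 and 1.12 FPKM against 1.29 and 1.93 FPKM, so not every marker returned to its CD37 fl/fl replicate 1 level. The part of monocytes or macrophages in the values of Ctss, Ctsb, Psap, Grn or Cd68 was not tested.

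Of the 10 members with the largest differences between genotypes in either direction, 5 had this order. These were Ctsd and Man2b1, which were higher in CD37 -/-, and Gm2a, Ctsz and Npc2, which were lower. Lamp1, Atp6v0c, Tpp1, Atp6v1a and Asah1 were without it. The median ratio of CD37 fl/fl replicate 1 to replicate 2 was 1.26 over the 36 members and 0.919 over all tested genes, and that of CD37 -/- replicate 2 to replicate 1 was 1.30 against 1.01. In 17 of the 36 members (47.2%, against 53.2% of all tested genes above 0 in every library) the ratio within one of the genotypes was larger than the ratio between the genotype means.

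**Figure D3:**
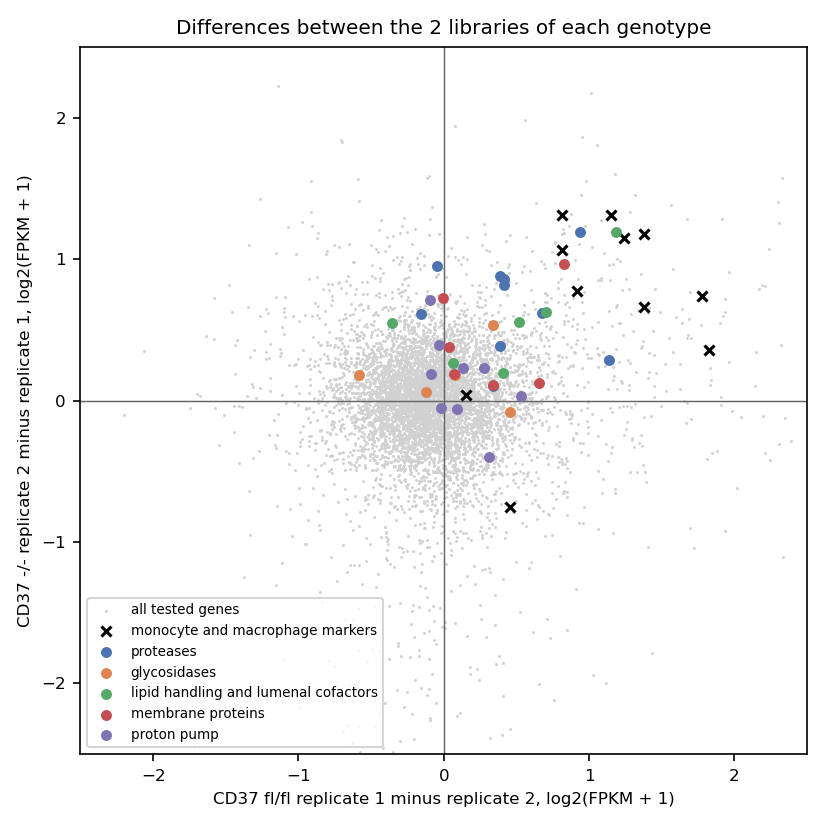
Difference between the 2 libraries of each genotype, on log2(FPKM + 1): CD37 fl/fl replicate 1 minus replicate 2 on the x axis, CD37 -/- replicate 2 minus replicate 1 on the y axis. Coloured points are the 36 tested lysosomal genes by role, crosses are the 11 tested monocyte and macrophage markers, and grey points are all tested genes with a known exon length, of which 43 lie past the axis limits of 2.5. The field above 0 on both axes holds 23 of the 36 lysosomal genes and 10 of the 11 markers.

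Gene length moved with the differences over the whole table. Tested genes were split by exon length into 3 groups of near-equal size. Their median log2 fold change was -0.13 in the short group (70 to 2340 bases), 0.11 in the middle group (2344 to 4478 bases) and 0.23 in the long group (4479 to 41324 bases). The 9 members of the short group had a median of -0.032, the 14 of the middle group 0.16 and the 13 of the long group 0.22. Both CD37 -/- libraries were higher in 2, 7 and 7 of them, beside 21.8%, 39.4% and 53.7% of all tested genes in these groups. They were lower in 3, 2 and 1, beside 37.1%, 21.6% and 12.5%. Cd68, Ctsz and Hexa, which had lower means in CD37 -/-, have exon lengths of 1257, 1441 and 1996 bases and belong to the short group, but Gm2a (4127 bases) and Npc2 (5438 bases) do not. Lamp1 (2675 bases), Ctsd (2351 bases) and Atp6v0c (3384 bases) belong to the middle group. The part of length in the differences between genotypes was not tested.

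**Figure D4:**
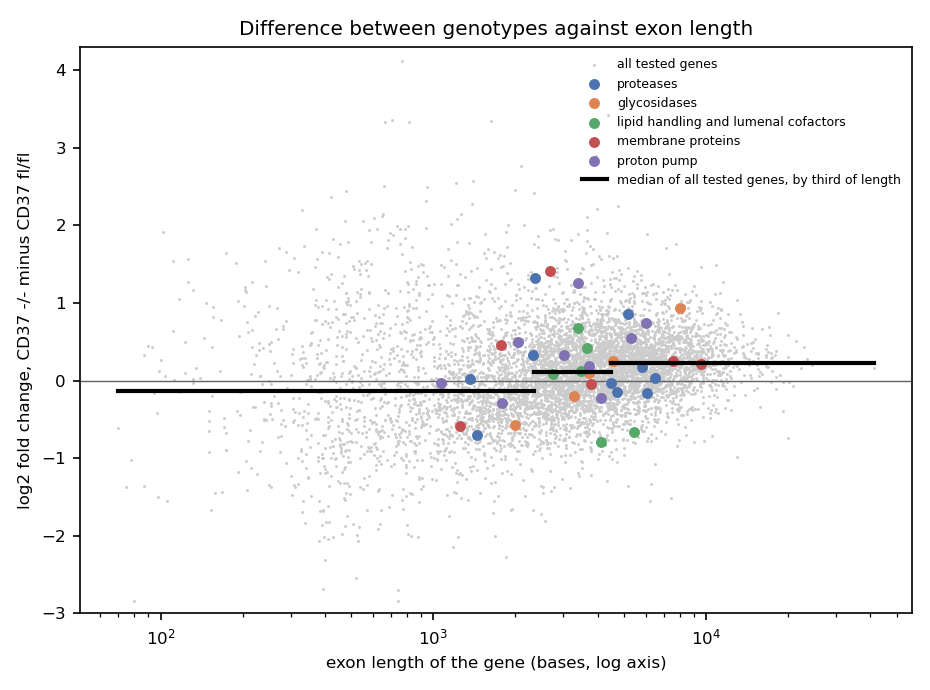
Log2 fold change, CD37 -/- minus CD37 fl/fl on log2(FPKM + 1), against the exon length of the gene in bases on a log axis. Grey points are all tested genes with a known exon length, coloured points the 36 tested lysosomal genes by role, and black lines the median of all tested genes in each of 3 groups of length: -0.13, 0.11 and 0.23. Lamp1, Ctsd and Atp6v0c lie well above the line of the middle group.

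Other genes of the lysosome pathway were read from lists written for this comparison, and 0 of the 85 tested passed the adjusted threshold in limma with Benjamini-Hochberg correction, while 17 were higher (20.0%, against 16.1% of all tested genes) and 2 lower (2.35%, against 7.96%) at an unadjusted p under 0.05 in limma. Of the 7 lists, genes that sort enzymes to the lysosome had the highest share above both CD37 fl/fl libraries: of 14 tested, 11 were higher in both CD37 -/- libraries (78.6%, against 38.2% of all tested genes) and 1 was lower (7.14%, against 23.7%), with a median log2 fold change of 0.45. Their median exon length was 4563.5 bases, within the long group. In that group 53.7% of all tested genes were higher in both and 12.5% lower in both, with a median of 0.23. The part of length in this list was not tested. M6pr, the cation-dependent mannose 6-phosphate receptor, was 14.3 and 19.6 FPKM in CD37 fl/fl against 27.5 and 34.7 FPKM in CD37 -/- (log2 fold change 0.85, SE 0.27, limma adjusted p = 0.153 by Benjamini-Hochberg). Nagpa, which uncovers the mannose 6-phosphate tag, was 9.57 and 10.1 FPKM against 14.9 and 15.3 FPKM, and Ap1m1, a subunit of the AP-1 adaptor of the trans-Golgi network, was 8.33 and 7.89 FPKM against 11.6 and 13.5 FPKM. All 3 were without overlap.

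The largest ratios of that list belonged to genes too low for the test, which were picked after their values were seen. Igf2r, the large mannose 6-phosphate receptor, was covered by 241 and 20 reads in CD37 fl/fl against 1167 and 2120 in CD37 -/-, or 0.180, 0.0132, 0.754 and 1.07 FPKM. Gnptab, which encodes the phosphotransferase that starts the tag, had 181 and 230 reads against 907 and 2160 reads, or 0.173, 0.195, 0.750 and 1.40 FPKM. In both, each CD37 -/- library lay above each CD37 fl/fl library.

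Of the other hydrolases, 19 of 31 found were tested, and 6 were higher and 3 lower in both CD37 -/- libraries (31.6% and 15.8%, against 38.2% and 23.7% of all tested genes), with a median log2 fold change of 0.13. Arsa, arylsulfatase A, which degrades sulfatide, was 5.64 and 6.27 FPKM in CD37 fl/fl against 10.7 and 11.3 FPKM in CD37 -/- (log2 fold change 0.79, SE 0.20, limma adjusted p = 0.117 by Benjamini-Hochberg). Smpdl3a, a relative of acid sphingomyelinase, was 4.14 and 2.73 FPKM against 5.87 and 8.71 FPKM, also without overlap. Of the other membrane proteins and transporters, 11 of 20 were tested, 4 were higher and 1 lower in both (36.4% and 9.09%), and the median was 0.30. Cd164, the sialomucin endolyn, led that list at 3.46 and 5.65 FPKM against 10.4 and 13.8 FPKM (log2 fold change 1.25, SE 0.28, limma adjusted p = 0.106 by Benjamini-Hochberg).

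Of 6 further pump subunits tested, 3 were higher in both CD37 -/- libraries (50.0%, against 38.2% of all tested genes) and 1 was lower (16.7%, against 23.7%). Their median log2 fold change was 0.11. Atp6v1g1, a subunit of the outer stalk that pairs with Atp6v1e1, was 20.3 and 21.9 FPKM in CD37 fl/fl against 12.1 and 11.3 FPKM in CD37 -/-. It was thus lower in both, with a log2 fold change of -0.80 (SE 0.21, limma adjusted p = 0.132 by Benjamini-Hochberg) that kept its sign under TPM rescaling. Atp6ap2, the accessory subunit also called the prorenin receptor, was 6.29 and 6.75 FPKM against 7.33 and 7.91 FPKM.

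Among 13 tested relatives and regulators of TFEB, 7 were higher and 2 lower in both CD37 -/- libraries (53.8% and 15.4%, against 38.2% and 23.7% of all tested genes), and the median log2 fold change was 0.28. Rraga, a Rag GTPase that recruits mTORC1 to the lysosome, was 18.8 and 23.8 FPKM in CD37 fl/fl against 26.0 and 31.1 FPKM in CD37 -/-. Lamtor5 and Lamtor1, subunits of the Ragulator complex that anchors the Rag GTPases, were the lower ones. Lamtor5 was 11.9 and 13.2 FPKM against 11.5 and 7.87 FPKM, and Lamtor1 was 7.99 and 6.37 FPKM against 6.11 and 5.39 FPKM, a difference of -0.27 on the log2 scale that became 0.065 under TPM rescaling. None of these 3 had an unadjusted p under 0.05 in limma. Of the 13, 1 was higher at that p (7.69%, against 16.1% of all tested genes) and 0 were lower (against 7.96%). That gene, Flcn, was picked after its values were seen. It was 0.894 and 1.37 FPKM against 2.63 and 3.39 FPKM (log2 fold change 0.91, SE 0.20, limma adjusted p = 0.106 by Benjamini-Hochberg).

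**Figure D5:**
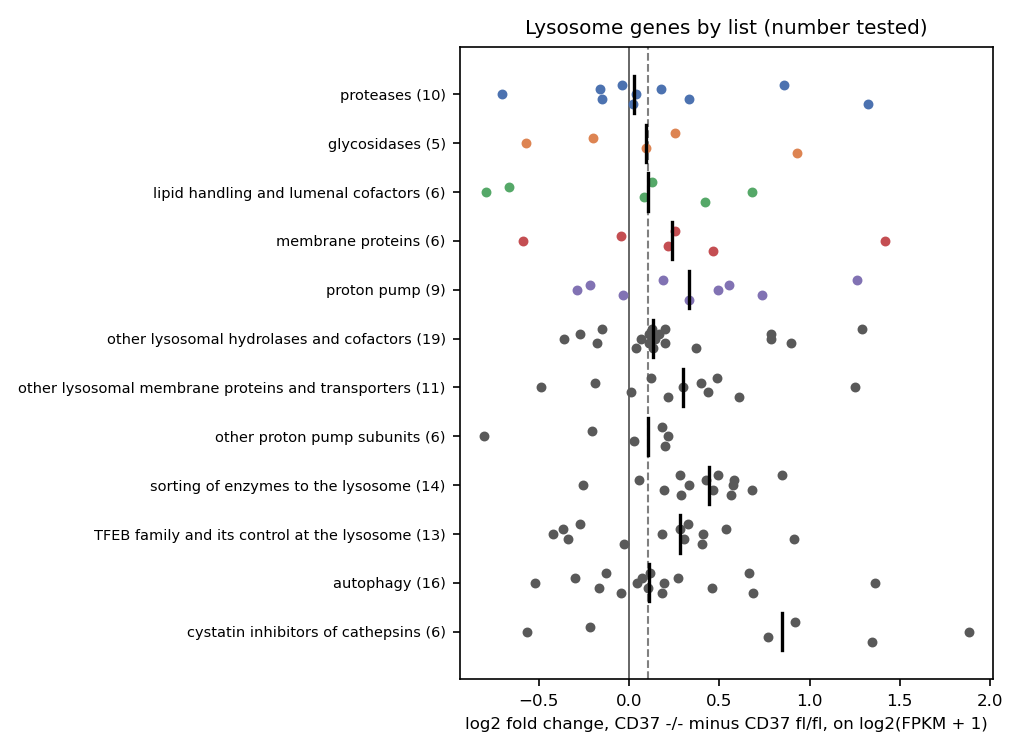
Log2 fold change of each tested gene, CD37 -/- minus CD37 fl/fl on log2(FPKM + 1), for the 5 roles of lysosomal genes (coloured) and 7 further lists (grey), with the number tested in brackets. Black bars are the median of each list, the dashed line is the median of all tested genes, 0.11. The medians lie between 0.031 for proteases and 0.85 for cystatins, which hold 6 genes, and the sorting genes lie almost wholly to the right of 0.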

How the data were processed

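The 40 genes and all lists were chosen with earlier results of these data known. The authors deposited FPKM values of 17104 genes, 1 column per library, without a log. Per the labels, poly(A) RNA of sorted LSCs was made into strand-marked libraries, and the submitters' processing notes name fastp 0.20.1, STAR 2.7.7a, featureCounts 2.0.0, edgeR and the build mm39, with no settings; whether the counting used the strand is not given in the sources used here. Yet 16843 of 17045 matched genes (98.8%) gave whole reads in all libraries (within 0.05 of a whole number, which chance meets for 10.0% of single values) when FPKM were multiplied by gene spans, introns included, of GENCODE M21 on GRCm38. With exon lengths between 9.56% and 10.2% of low values did. Names and positions are therefore those of M21, and recovered reads served for depth, for levels per exon length and for alternatives.

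Values were tested as log2(FPKM + 1) for the 6761 genes with a mean of at least 1 FPKM, in R 4.3.3 with limma 3.58.1 (lmFit, then eBayes with its trend option, all 4 libraries, no block). P-values were adjusted after Benjamini-Hochberg over all tested genes, with a threshold of 0.05. The pseudocount of 1 understates changes of low genes. Groups were taken from the labels. Medians of lists are given beside those of all tested genes, without a set test. Shared 31-base stretches were counted between annotated transcripts, and promoter windows came from RefSeq (GRCm38.p6). The code was tested on simulated data. Scripts ran under Python 3.11.15 with scipy 1.17.1, numpy 2.4.6, matplotlib 3.10.9 and pandas 2.3.3.

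All 40 members are given with their values. Of each pathway list, up to 3 tested genes without overlap between genotypes and with a mean of at least 5 FPKM were named by the size of the log2 fold change, genes named otherwise are marked as such, and a gene that this rule takes is not reported here. Alternatives changed the pseudocount (0.1), the filter (every gene above 0, or a mean of at least 5 FPKM), the scaling (quantile normalization, TPM, upper quartile) and the variance model (no trend, or robust). Others added the replicate number as a block, left out 1 library, used limma-voom on recovered reads (a mean of at least 10) or computed FPKM by exon length. All 40 members entered the fits on every gene above 0, on recovered reads and on FPKM by exon length.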

Additional observations from a re-analysis of the deposited data

How the results depend on the processing

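The count of 0 members past the adjusted threshold in limma held under all 15 alternatives, and the sign of the difference held under all of them for 22 of the 36 tested members. Across all genes, robust estimation called 88, a mean of at least 5 FPKM 45 and exon-length FPKM 16 at an adjusted p under 0.05 in limma, and the other alternatives apart from the block called 0. The replicate numbers were not shown to pair the libraries: the correlation of replicate 1 minus replicate 2 between the genotypes was -0.042 over 6761 genes. With the replicate number as a block, 73 genes but 0 members were called, and the members' median stayed at 0.15. There 7 members were higher and 0 lower at an unadjusted p under 0.05 in limma, beside 16.0% and 7.34% of all tested genes.

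Members higher at an unadjusted p under 0.05 in limma numbered 5 with quantile normalization, 14 with TPM rescaling and 3 to 8 with 1 library left out. Those lower numbered 0 of 36 with TPM rescaling and 4 of 40 with limma-voom, beside 2.88% and 6.08% of all tested genes. Members lower in both CD37 -/- libraries numbered 0 with TPM rescaling and 7 to 12 with 1 library left out, when the comparison is of 2 libraries against 1, and those higher in both numbered 17 to 23. The members' median was 0.53 with TPM rescaling and between -0.037 and 0.41 with 1 library left out, and that of the other pathway genes was 0.60 and between 0.13 and 0.27. TPM rescaling put the median of all tested genes at 0.49 and quantile normalization put it at -0.022.

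Log2 fold changes that turned their sign under TPM rescaling were those of Ctsa (0.22), Ctsb (0.21), Ctsh (0.34), Gla (0.13), Laptm5 (0.33), Atp6v0d1 (0.059), Atp6v1e1 (0.13), Atp6v1f (0.35), Lamtor1 (0.065), Sqstm1 (0.067) and Cstb (0.16). Quantile normalization turned Ctsl (-0.084), Ctss (-0.12), Laptm5 (0.064) and Atp6v1f (0.12), and the upper quartile turned Ctsl (-0.011) and Ctss (-0.020). With 1 library left out the sign turned within these ranges: Ctsa -0.34 to 0.044, Ctsb -0.50 to 0.18, Ctsc -0.26 to 0.61, Ctsh -0.60 to 0.53, Ctsl -0.44 to 0.51, Ctss -0.57 to 0.62, Lgmn -0.076 to 0.74, Gla -0.49 to 0.092, Psap -0.51 to 0.68, Grn -0.15 to 0.40, Laptm5 -0.37 to 0.28 and Atp6v1f -0.23 to 0.17. The causes of these changes were not tested. With 2 libraries per genotype and no adjusted call, differences the size of those of most members were not resolved.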

Other observations

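Genes next to lysosomal degradation were read from the lists of autophagy and of cystatins. Of 16 tested autophagy genes, 5 were higher and 4 lower in both CD37 -/- libraries (31.3% and 25.0%, against 38.2% and 23.7% of all tested genes), with a median log2 fold change of 0.11, the same as that of all tested genes. Gabarap, an ATG8 protein of the autophagosome membrane, was 129 and 84.6 FPKM in CD37 fl/fl against 75.7 and 69.5 FPKM in CD37 -/-. Sqstm1, the cargo receptor p62, was 20.0 and 28.1 FPKM against 18.7 and 19.4 FPKM. Vps11, a subunit of the complexes that tether vesicles to the lysosome, was 4.21 and 4.56 FPKM against 5.78 and 7.07 FPKM. Atg9a, the lipid scramblase of the autophagosome, was picked after its values were seen: its reads numbered 41 and 92 in CD37 fl/fl against 340 and 889 in CD37 -/- (log2 fold change 1.36, SE 0.28, limma adjusted p = 0.0941 by Benjamini-Hochberg).

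The 6 cystatins, inhibitors of cysteine cathepsins, had a median log2 fold change of 0.85, but 3 of them overlapped between genotypes. Another 1 was higher in both CD37 -/- libraries (16.7%, against 38.2% of all tested genes) and 2 were lower (33.3%, against 23.7%). Cst3, the secreted cystatin C, was 192 and 123 FPKM in CD37 fl/fl against 105 and 101 FPKM in CD37 -/-. Cstb, the cytosolic cystatin B, was 60.2 and 60.3 FPKM against 49.0 and 54.6 FPKM, and its difference of -0.22 on the log2 scale became 0.16 under TPM rescaling. Stfa1, a stefin found in neutrophils whose groups overlapped, was picked after its values were seen and was 66.3 and 8.11 FPKM against 130 and 62.4 FPKM. The summed neutrophil markers were likewise lowest in CD37 fl/fl replicate 2, at 3589 FPKM against 18352, 18397 and 10293, and their part in the stefin values was not tested.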
